A study of Mus musculus with 10 samples.

Results

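Genes that mark the resting stem cells and upper compartments of the hair follicle were followed across the skin of mice with an altered neuropeptide Y gene. They were taken by name from a list of bulge, hair germ and upper follicle genes: Cd34, Lgr5, Lgr6, Lhx2, Sox9, Nfatc1, Tbx1, Foxc1 and Gata6. All 9 were found among the 49671 gene IDs of the count files, and all 9 passed the filter on low counts. The rule that lists them uses no measured value, but the list was chosen with earlier results of these data known.

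Poly(A) RNA of whole skin was sequenced from mice aged 22 weeks, with 1 library per mouse. The NPYtet group held 5 homozygous mutants of the strain B6;129S4-Npytm2Rpa/J (NPY tet/tet), of which 3 were labelled female and 2 male. The WT group held 5 wildtype siblings (NPY +/+) of the same strain, of which 2 were labelled female and 3 male. The labels name no drug or diet and do not say in which cells the altered allele is active. The series title speaks of overexpressed Npy and inflamed skin.

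Hair follicles cycle between growth (anagen), regression and rest (telogen). Between growth phases, stem cells wait in the bulge, a niche of the outer root sheath, and the hair germ just below it starts the next growth phase. Cells higher up, in the isthmus, the junctional zone and the duct of the sebaceous gland, keep their own stem cells. Wnt and R-spondin signals drive activation, and bone morphogenetic protein (BMP) signals hold the bulge at rest. Of the 9 genes, 3 encode surface proteins (Cd34, Lgr5, Lgr6) and 6 encode transcription factors of the follicle.

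Values are given as CPM, read counts scaled to the size of each library multiplied by its TMM scaling factor. A low factor raises all CPM values of that library. Total counts ran from 23209405 to 53357695 reads per library, and each of the 9 genes had between 166 and 20753 reads in every library. Npy checked the genotype labels: it averaged 224 ± 156 CPM in NPYtet and 1.57 ± 1.03 CPM in WT skin (SD, 5 mice each; log2 fold change 7.45, edgeR adjusted p = 0.000109). NPYtet replicate 5 and WT replicate 2 stood apart from the rest. NPYtet replicate 5 had 19953 genes with a read and a scaling factor of 0.652, and WT replicate 2 had 21144 genes and a factor of 0.696, against 24710 to 26323 genes in the others. Mitochondrial reads made up 9.26% of counts in NPYtet replicate 5, against 1.86% to 3.03% in the other 9 libraries, and ribosomal RNA loci 0.294% in NPYtet replicate 5 and 0.158% in WT replicate 2, against at most 0.0451% elsewhere. Fits without each of them and without both are given below for some genes, and why they stood apart was not tested. In NPYtet replicate 1, labelled female, the X-inactivation RNA Xist had 2 reads and the Y-linked gene Ddx3y 1513 reads. Below, its sex is given as labelled, and every fit with a sex term used the labels. No fit used the sex shown by the X and Y reads.

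None of the 9 genes differed between the genotypes at an edgeR adjusted p under 0.05. Over all 18060 genes tested, 0.00554% passed, which was Npy alone. At an unadjusted p under 0.05 the count was also 0 of 9, where 3.59% of all genes passed. DESeq2 and limma voom likewise called 0 of 9 after adjustment, where they called 0.198% and 0.0111% of all genes. Here and below, limma voom was run with quality weights, which let libraries that deviate more count less. At an unadjusted p under 0.05, limma voom passed Lhx2 and Tbx1 (4.3% of all genes passed there), and DESeq2 passed none of the 9 (5.4% of all genes). In the edgeR fit 5 of 9 log2 fold changes (NPYtet minus WT) lay below 0, against 51.2% of all genes, and the median was -0.08, against -0.01 over all genes. The genotypes overlapped in all 9 genes, while 0.305% of all genes did not overlap. In whole skin, fewer cells of a type and less RNA per cell cannot be told apart.

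**Figure D1:**
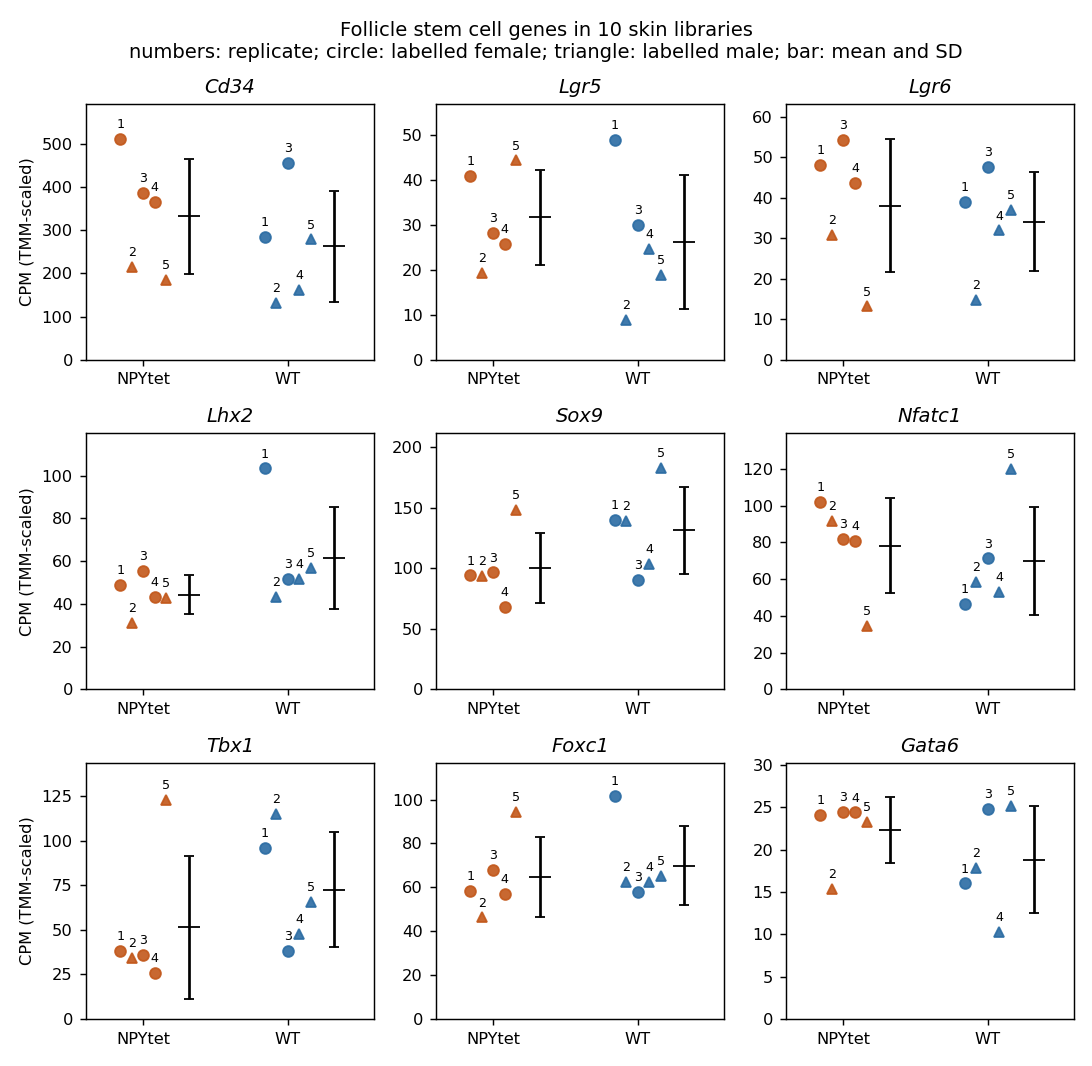
Level of each gene in CPM (vertical axes, from 0) in the 5 NPYtet and 5 WT skin libraries. Points are libraries with their replicate number, circles are labelled female and triangles labelled male, and bars give the mean and SD. The genotypes overlap in every panel, and Tbx1 reaches 122.6 CPM in NPYtet replicate 5, against 25.6 to 38.2 CPM in the other NPYtet libraries.

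Cd34 encodes a sialomucin on the surface of bulge cells in mouse skin, which vessel endothelium, dermal fibroblasts and mast cells also carry. It was at 510.4, 215, 385, 366 and 185 CPM in NPYtet replicates 1 to 5, and at 284, 131.5, 456, 162.5 and 278 CPM in WT replicates 1 to 5. The highest level was in NPYtet replicate 1 and the lowest in WT replicate 2, and the groups overlapped over most of their range. Between the genotypes Cd34 differed by a log2 fold change of 0.13 (NPYtet minus WT, SE 0.31, 95% interval -0.53 to 0.78, edgeR adjusted p = 0.999). With single libraries left out it lay between -0.004 (without WT replicate 1) and 0.30 (without WT replicate 5). The gene (ENSMUSG00000016494) lies on chromosome 1 at 194938819 to 194961279 on the forward strand of GRCm38. It shares 148 exon bases with the antisense gene Gm16897. Since no source used here gives the strand setting of the counts, reads from the pair cannot be told apart.

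Markers of the other cells that carry Cd34 were set beside it. Summed over the list, 8 blood endothelium genes reached 221 to 311 CPM in NPYtet and 178 to 290 CPM in WT. Of their fold changes 8 of 8 were above 0, where 51.2% of all genes were below 0, and none passed the adjusted threshold. The 8 dermal fibroblast genes summed to 4204 to 31360 CPM in NPYtet and 4424 to 26300 CPM in WT. In the libraries with the highest sums, NPYtet replicate 1 and WT replicate 5, Col1a1 alone was at 29290 and 24750 CPM. Again 8 of 8 were above 0 and none passed the adjusted threshold. In limma voom 1 of the 8 endothelium genes and 3 of the 8 fibroblast genes were below 0. Mast cell genes summed to 137 to 225 CPM in NPYtet and 112 to 182.5 CPM in WT, with 4 of 7 above 0. No marker of these lists was at 0 in both groups, and the part of these cells in the Cd34 level was not tested.

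Lgr5 and Lgr6 encode receptors for R-spondins, secreted proteins that strengthen Wnt signals. Lgr5 marks cells of the lower bulge and hair germ, and Lgr6 marks cells of the isthmus above the bulge. Lgr5 was at 40.8, 19.3, 28.1, 25.7 and 44.3 CPM in NPYtet replicates 1 to 5, and at 48.8, 8.78, 29.9, 24.6 and 18.8 CPM in WT replicates 1 to 5. It spanned 5.56-fold from WT replicate 2 to WT replicate 1, so both ends of its range were WT libraries. Its log2 fold change was 0.27 (SE 0.37, 95% interval -0.53 to 1.07, edgeR adjusted p = 0.999). It was -0.11 without NPYtet replicate 5, 0.07 without WT replicate 2 and 0.55 without WT replicate 1.

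Lgr6 was at 48.2, 30.9, 54.4, 43.7 and 13.2 CPM in NPYtet replicates 1 to 5, and at 38.9, 14.8, 47.7, 31.9 and 37.1 CPM in WT replicates 1 to 5. The lowest level of each genotype was in a library that stood apart, NPYtet replicate 5 and WT replicate 2. The other 4 NPYtet libraries lay at or above 30.9 CPM and the other 4 WT libraries at or above 31.9 CPM. For Lgr6 the log2 fold change was -0.08 (SE 0.34, 95% interval -0.80 to 0.63, edgeR adjusted p = 0.999). With single libraries left out it lay between -0.28 (without NPYtet replicate 2) and 0.18 (without NPYtet replicate 5). Lgr5 (ENSMUSG00000020140) lies on chromosome 10 at 115450311 to 115587780, and Lgr6 (ENSMUSG00000042793) on chromosome 1 at 134983301 to 135105276, both on the reverse strand. Neither shares exon bases with another annotated gene.

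Lhx2, a LIM homeodomain factor that keeps bulge cells undifferentiated, had the smallest p of the 9 genes. It was at 48.8, 31.2, 55.6, 43.1 and 42.9 CPM in NPYtet replicates 1 to 5, and at 103.4, 43.3, 51.8, 51.7 and 57.0 CPM in WT replicates 1 to 5. WT replicate 1 was far above the rest, and 4 of 5 NPYtet libraries lay below the WT median of 51.8 CPM. This gave a log2 fold change of -0.56 (SE 0.27, 95% interval -1.14 to 0.03), with an unadjusted p of 0.0596 and an edgeR adjusted p = 0.999. By unadjusted p it ranked 783 among the 18060 genes. Without WT replicate 1 the log2 fold change was -0.31 (edgeR adjusted p = 1). Without the pair of libraries that stood apart it was -0.69, with an unadjusted p of 0.0171 and an edgeR adjusted p = 0.928, and over all alternatives the adjusted p lay between 0.811 and 1. Lhx2 (ENSMUSG00000000247) lies on chromosome 2 at 38339281 to 38369733 on the forward strand.

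Sox9 and Tbx1, factors of bulge cells and their renewal, gave the most alike profiles of any pair. Sox9, which also specifies the outer root sheath, was at 94.2, 93.9, 96.6, 68.3 and 148 CPM in NPYtet replicates 1 to 5, and at 139.8, 139, 90.7, 104 and 183 CPM in WT replicates 1 to 5. After TMM scaling, NPYtet replicate 5 sat among the WT libraries and WT replicate 3 among the NPYtet libraries. Before scaling, NPYtet replicate 5 had 2241 of 23209405 reads, a share inside the range of the other NPYtet libraries. WT replicate 2 had 2632 of 27207273 reads, likewise inside that range. Sox9 thus had a log2 fold change of -0.32 (SE 0.28, 95% interval -0.92 to 0.28, edgeR adjusted p = 0.999). It was -0.17 without WT replicate 1 and -0.46 without NPYtet replicate 5. Sox9 (ENSMUSG00000000567) lies on chromosome 11 at 112782224 to 112787760 on the forward strand.

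Tbx1 was at 38.2, 34.4, 35.8, 25.6 and 122.6 CPM in NPYtet replicates 1 to 5, and at 95.8, 114.8, 38.1, 47.5 and 65.7 CPM in WT replicates 1 to 5. After TMM scaling, NPYtet replicate 5 held the highest level of all 10 libraries. Before scaling it had 1853 of 23209405 reads, against 3710 of 33101744 in WT replicate 1. The other 4 NPYtet libraries and WT replicate 3 lay between 25.6 and 38.2 CPM. The log2 fold change was -0.48 (SE 0.41, 95% interval -1.35 to 0.39, edgeR adjusted p = 0.999). It rested on single libraries: it was -1.04 without NPYtet replicate 5 (unadjusted p of 0.0177, edgeR adjusted p = 1) and -0.05 without WT replicate 1. Without NPYtet replicate 2 it was -0.31. Tbx1 (ENSMUSG00000009097) lies on chromosome 16 at 18580979 to 18590671 on the reverse strand.

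Nfatc1 and Foxc1 are factors of bulge quiescence, and Foxc1 is known in mice to act upstream of Nfatc1 in activated bulge cells. Nfatc1 was at 101.8, 91.8, 81.9, 80.6 and 34.3 CPM in NPYtet replicates 1 to 5, and at 46.5, 58.3, 71.2, 53.2 and 120.1 CPM in WT replicates 1 to 5. In 4 of 5 NPYtet libraries it was above the WT median of 58.3 CPM, but the lowest level was also an NPYtet library and the highest a WT library. For Nfatc1 the log2 fold change was 0.15 (SE 0.37, 95% interval -0.64 to 0.94, edgeR adjusted p = 0.999), 0.48 without NPYtet replicate 5 and -0.07 without WT replicate 1. Nfatc1 (ENSMUSG00000033016) lies on chromosome 18 at 80606205 to 80713071 on the reverse strand.

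Foxc1 was at 58.4, 46.3, 67.9, 57.0 and 94.3 CPM in NPYtet replicates 1 to 5, and at 101.5, 62.6, 57.9, 62.4 and 65.3 CPM in WT replicates 1 to 5. It varied least of the 9 genes, by 2.19-fold from the lowest to the highest library. After TMM scaling, WT replicate 1 and NPYtet replicate 5 were high, and the other 8 libraries lay between 46.3 and 67.9 CPM. The log2 fold change was -0.12 (SE 0.28, 95% interval -0.72 to 0.49, edgeR adjusted p = 0.999), -0.39 without NPYtet replicate 5 and 0.12 without WT replicate 1. Foxc1 (ENSMUSG00000050295) lies on chromosome 13 at 31806633 to 31812476 on the forward strand, in a single exon.

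Gata6 encodes a zinc finger factor of the junctional zone and sebaceous duct. It was at 24.1, 15.3, 24.4, 24.4 and 23.2 CPM in NPYtet replicates 1 to 5, and at 16.0, 17.8, 24.9, 10.3 and 25.1 CPM in WT replicates 1 to 5. NPYtet replicate 2 was low, and the other 4 NPYtet libraries lay within 23.2 to 24.4 CPM, inside the WT range. Gata6 had a log2 fold change of 0.19 (SE 0.31, 95% interval -0.47 to 0.84, edgeR adjusted p = 0.999). It was 0.06 without WT replicate 1 and likewise without WT replicate 4, 0.10 without NPYtet replicate 5 and 0.34 without WT replicate 5. Summed sebocyte genes reached 2633 to 4358 CPM in NPYtet and 1153 to 3108 CPM in WT. Of their fold changes 7 of 8 were above 0, where 51.2% of all genes were below 0. An unadjusted p under 0.05 was reached by 1 of them, and by 3.59% of all genes, and none passed the adjusted threshold. The part of sebocytes in the Gata6 level was not tested. Gata6 (ENSMUSG00000005836) lies on chromosome 18 at 11052064 to 11085635 on the forward strand, and it shares 93 exon bases with the antisense gene 1010001N08Rik.

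**Figure D2:**
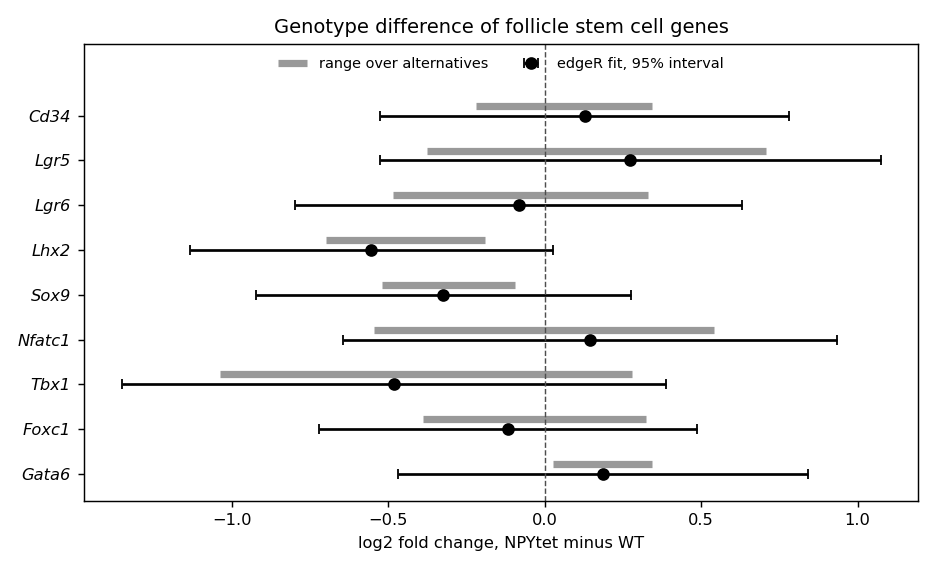
Log2 fold change of each gene, NPYtet minus WT (horizontal axis), from the edgeR fit with its 95% interval (points and black lines) and the range over 22 alternative fits (grey bars). Every interval holds 0, and the grey bars of Lhx2, Sox9 and Gata6 stay on 1 side of 0.

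RefSeq promoter windows (GRCm38.p6, 250 bases before to 50 after the start site) were read for 5 of the genes: Cd34, Lgr6, Lhx2, Tbx1 and Foxc1. Windows of Nfatc1 and Gata6 were not looked up, and no window was found for Lgr5 and Sox9. Windows of 3 genes are shown. Cd34 and Tbx1 are set side by side because their profiles lay far apart, and Foxc1 because its window alone of the 5 held a match to a searched motif. The Cd34 window (chr1:194938571-194938870, forward strand) is 50% G or C, the Tbx1 window (chr16:18590622-18590921, reverse strand) 58.3% and the Foxc1 window (chr13:31806396-31806695, forward strand) 67.3%. The median over 32851 windows of mouse genes was 52.7%. Each line reads 5′ to 3′ on the gene's strand, and capitals mark motif matches.

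Cd34: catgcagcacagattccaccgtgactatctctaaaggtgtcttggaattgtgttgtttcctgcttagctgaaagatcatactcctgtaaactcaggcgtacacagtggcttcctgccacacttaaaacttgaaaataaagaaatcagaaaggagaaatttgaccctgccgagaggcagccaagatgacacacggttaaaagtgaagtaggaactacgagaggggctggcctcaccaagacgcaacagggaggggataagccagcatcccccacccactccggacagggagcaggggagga
Tbx1: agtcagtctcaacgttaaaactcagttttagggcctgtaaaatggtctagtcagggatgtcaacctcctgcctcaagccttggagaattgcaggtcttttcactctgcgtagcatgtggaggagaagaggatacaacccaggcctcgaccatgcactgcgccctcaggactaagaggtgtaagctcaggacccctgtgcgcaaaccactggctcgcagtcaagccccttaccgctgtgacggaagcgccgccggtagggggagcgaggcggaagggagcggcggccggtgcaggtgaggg
Foxc1: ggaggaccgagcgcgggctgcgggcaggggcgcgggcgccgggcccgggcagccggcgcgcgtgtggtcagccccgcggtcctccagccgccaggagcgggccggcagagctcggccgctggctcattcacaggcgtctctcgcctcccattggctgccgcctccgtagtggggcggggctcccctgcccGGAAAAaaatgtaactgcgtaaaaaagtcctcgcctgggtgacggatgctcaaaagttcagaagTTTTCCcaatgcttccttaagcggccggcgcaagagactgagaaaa

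Short core motifs of the families these factors belong to, and of the Wnt effectors TCF and LEF, were searched on both strands. The motif taken for TCF and LEF was CTTTGAT, that for forkhead factors GTAAACA and that for SOX factors ACAATGG. For T-box factors it was GGTGTGA, for LIM homeodomain factors TAATTA, for NFAT factors the letters GGAAAA and for Gata6 and its relatives the letters AGATAA. None of these motifs contains another. The Foxc1 window held GGAAAA 60 bases before the start site and, as its reverse complement TTTTCC, 4 bases after it. In all, 23.36% of the 32851 windows held that motif at least once. The windows of Cd34, Lgr6, Lhx2 and Tbx1 held none of the 7 motifs, each of which occurs in 3.65% to 23.36% of windows. Such a match is a description of letters and shows no binding.

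Levels were compared between genes per kilobase of merged exon. In NPYtet skin the order was Cd34 (45.6 ± 18.3 CPM per kb), Sox9 (24.2 ± 7.07), Tbx1 (14.6 ± 11.4), Foxc1 (11.1 ± 3.11), Nfatc1 (10.4 ± 3.47), Lhx2 (10.1 ± 2.04), Lgr6 (5.56 ± 2.39), Gata6 (3.42 ± 0.602) and Lgr5 (3.08 ± 1.02), each as mean CPM per kb ± SD over 5 mice. In WT skin Cd34 (36.0 ± 17.5 CPM per kb) and Sox9 (31.8 ± 8.75) again led, followed by Tbx1 (20.6 ± 9.20), Lhx2 (14.0 ± 5.45), Foxc1, Nfatc1 (9.36 ± 3.95) and Lgr6 (4.97 ± 1.78), and Gata6 (2.89 ± 0.968) and Lgr5 (2.55 ± 1.45) came last. Lgr6, Gata6 and Lgr5 held ranks 7 to 9 in every library, and Cd34 and Sox9 ranks 1 to 3. Between neighbours in this order the means differed by more than the larger SD only for Cd34 over Sox9 and Lhx2 over Lgr6 in NPYtet, and only for Sox9 over Tbx1, Nfatc1 over Lgr6 and Lgr6 over Gata6 in WT. Cd34 was at the 92.6th percentile of all tested genes in level per kb, and Lgr5 at the 44.8th.

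The 9 genes did not vary as a block across mice. Profiles were compared as the mean absolute difference of log2 CPM over the 10 libraries, with each gene centred and scaled to an SD of 1, so that 0 means the same shape. Sox9 and Tbx1 were nearest (0.366 SD), followed by Cd34 and Lgr6 (0.428 SD) and by Lhx2 and Foxc1 (0.49 SD). Nfatc1 and Tbx1 were farthest apart (1.54 SD), and Cd34 and Tbx1 next (1.49 SD). Cd34 and Lgr6 were low in NPYtet replicate 5 and WT replicate 2, where Tbx1 had its highest values. The within-genotype SD of log2 CPM was 0.353 for Foxc1 and 0.776 for Tbx1, the ends of the range. Its median over the 9 genes was 0.583, beside 0.627 over tested genes of at least 1 CPM.

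**Figure D3:**
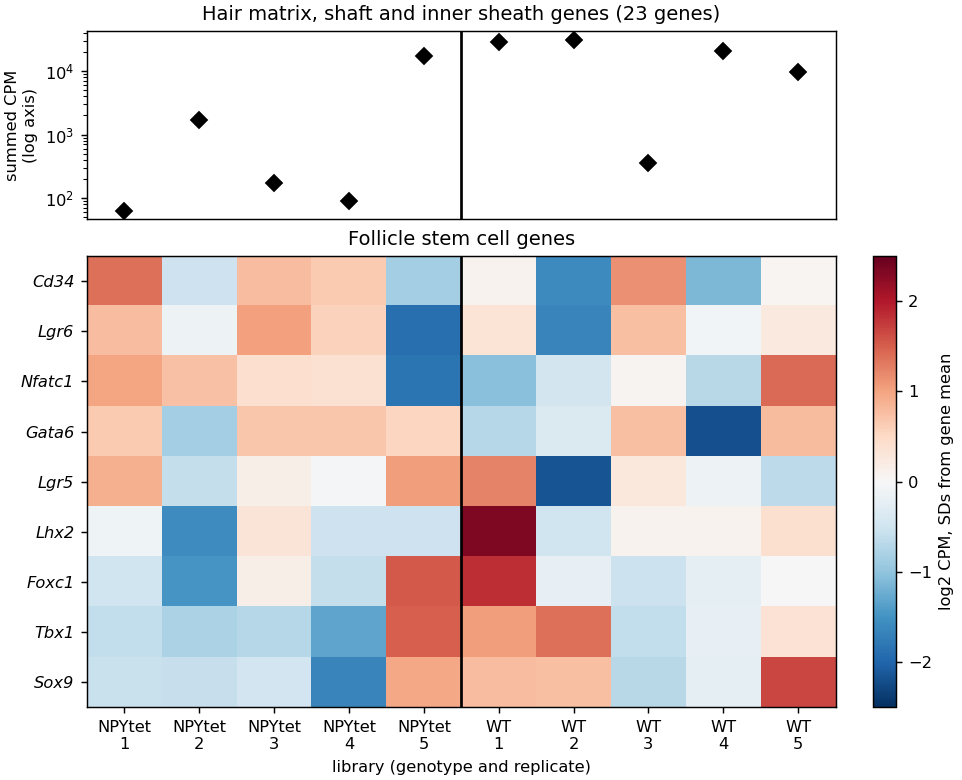
Lower panel: log2 CPM of each gene in SDs from its own mean over the 10 libraries (red above, blue below), with NPYtet libraries left of WT libraries. Upper panel: summed CPM of 23 hair matrix, shaft and inner sheath genes in the same libraries, on a log axis. Tbx1 and Sox9 are red in NPYtet replicate 5 and WT replicates 1, 2 and 5, and Cd34 and Lgr6 are blue in NPYtet replicate 5 and WT replicate 2.

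Genes of the growing hair moved with several of these profiles. The 23 tested genes of the hair matrix, shaft and inner root sheath summed to 63.4, 1723, 173, 91.0 and 17100 CPM in NPYtet replicates 1 to 5, and to 28600, 31030, 355.5, 20920 and 9700 CPM in WT replicates 1 to 5. The sum was thus high in NPYtet replicate 5 and in 4 of 5 WT libraries. All 23 fold changes were below 0, 6 at an unadjusted p under 0.05 (where 2.14% of all genes were lower) and none past the adjusted threshold in edgeR. DESeq2 called 6 of the 23, where it called 0.198% of all genes. Without the filter on low counts edgeR called 23, where it called 409 of 32857 genes in all. At an unadjusted p under 0.05 edgeR passed 23 without NPYtet replicate 5 (2.95% of all genes were lower) and 9 without WT replicate 1 (0.464% of all genes). Those same 5 libraries held Tbx1 at 47.5 CPM or more, and the other 5 held it at 38.2 CPM or less. Lgr6 was highest, at 43.7 CPM or more, in the 4 libraries with the lowest hair sums (NPYtet replicates 1, 3 and 4 and WT replicate 3). In the rest it showed no steady fall. NPYtet replicate 2 was at 30.9 CPM and WT replicates 5, 4 and 1 at 37.1, 31.9 and 38.9 CPM, by rising hair sum. The lowest Lgr6 levels, 13.2 and 14.8 CPM, were in the libraries that stood apart, NPYtet replicate 5 and WT replicate 2. Basal and outer sheath keratinocyte genes summed to 8649, 25680, 6688, 6229 and 30520 CPM in NPYtet replicates 1 to 5, and to 5852, 72790, 7377, 10110 and 32420 CPM in WT replicates 1 to 5. Their lowest sum was in WT replicate 1, where the hair sum was among the highest.

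With the mean log2 level of the hair genes as a covariate in edgeR, the direction turned for 4 of the genes. Tbx1 was then at 0.28, Foxc1 at 0.32, Cd34 at -0.22 and Nfatc1 at -0.55 on the log2 scale. Lgr5 was at 0.71, Lgr6 at -0.49, Lhx2 at -0.19 and Sox9 at -0.10. None passed (edgeR adjusted p = 0.971 for Tbx1 and for Lgr5, and 0.978 for Lhx2). The hair sum was itself high in 1 of 5 NPYtet libraries and in 4 of 5 WT libraries, so its share and that of genotype cannot be told apart.

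**Figure D4:**
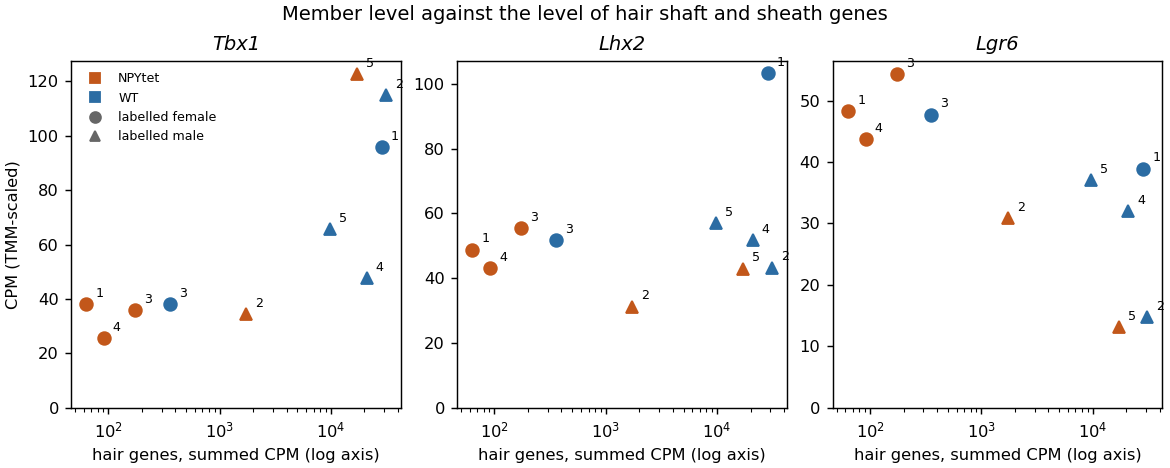
CPM of Tbx1, Lhx2 and Lgr6 (vertical axes, from 0) against the summed CPM of 23 hair matrix, shaft and inner sheath genes (horizontal log axes). Points are libraries with their replicate number, coloured by genotype and shaped by labelled sex. Tbx1 is at 47.5 CPM or more in the 5 libraries with hair sums of 9700 CPM or more, and Lhx2 stands out in WT replicate 1 alone (103.4 CPM).

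Other bulge genes were divided in direction. Of 11 further bulge genes, 6 had fold changes above 0 and 5 below (median 0.01), with 0 past the adjusted threshold in edgeR. At an unadjusted p under 0.05, 1 was lower, as were 2.14% of all genes. That gene was Vdr, the vitamin D receptor, which follicles need to re-enter growth. It was at 107, 163, 119, 102 and 71.8 CPM in NPYtet replicates 1 to 5, and at 256, 159, 123.5, 199 and 249 CPM in WT replicates 1 to 5. NPYtet replicate 2 and WT replicates 2 and 3 made the groups overlap (log2 fold change -0.79, SE 0.31, edgeR adjusted p = 0.999). Itga6, an integrin of basal cells, had a log2 fold change of 0.44 (SE 0.38; -0.13 without NPYtet replicate 2), Tcf7l1, a Wnt-restraining factor of the bulge, had -0.37 (SE 0.29; -0.20 without WT replicate 2) and Dkk3, a secreted protein of the dickkopf family, had -0.31 (SE 0.33; -0.06 without NPYtet replicate 5).

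The hair germ and hedgehog genes had lower point values. Of 6 genes, 5 were below 0 (median -0.99) and all 5 had an unadjusted p under 0.05 (2.14% of all genes were lower at that p), but 0 passed the adjusted threshold in edgeR. Without WT replicate 1, 1 of the 6 was lower at an unadjusted p under 0.05 (median -0.56), as were 0.464% of all genes. Shh, the hedgehog ligand of the germ and matrix, averaged 0.507 ± 0.550 CPM in NPYtet and 6.13 ± 7.06 CPM in WT (SD, 5 mice each). Its WT mean came from replicates 1 and 4, at 14.5 and 13.1 CPM, and the other WT libraries were at 0.653 to 1.22 CPM. Its log2 fold change was -4.03 (SE 1.19, edgeR adjusted p = 0.999). The hedgehog target and effector Gli1 was at -1.05 (SE 0.39), the receptor Ptch1 at -0.92 (SE 0.42), and Cdh3, the P-cadherin of germ cells, at -0.91 (SE 0.36). Ptch1 was named after its values were seen. Without WT replicate 1, Shh was at -2.59, Gli1 at -0.51, Ptch1 at -0.46 and Cdh3 at -0.60, and without WT replicate 4 Ptch1 was at -0.53. With the hair genes as covariate, Shh was at -1.56, Gli1 at -0.12 and Ptch1 at -0.29. Without the filter on low counts edgeR called Shh, where it called 409 of 32857 genes in all.

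No partner of the Lgr receptors and no BMP gene passed the adjusted threshold in edgeR. Of 12 R-spondin and Wnt feedback genes, 12 were below 0 (median -0.32), as were 51.2% of all genes. With the hair genes as covariate 8 of the 12 were below 0, and without WT replicate 4, 9 were. In the main fit 0 passed the adjusted threshold. At an unadjusted p under 0.05, 1 of the 12 was lower, as were 2.14% of all genes. That was Rspo4, an R-spondin known for its part in nail growth, which averaged 2.17 ± 0.729 CPM in NPYtet and 6.24 ± 3.54 CPM in WT (log2 fold change -1.18, SE 0.37, edgeR adjusted p = 0.999). Axin2, a general Wnt target, was at -0.36 (SE 0.28; -0.12 without NPYtet replicate 5), and the ligase gene Rnf43, whose product removes Wnt receptors, at -0.50 (SE 0.29; -0.31 without NPYtet replicate 5). Of 9 BMP and quiescence genes, 4 were above and 5 below 0 (median -0.05), and 0 had an unadjusted p under 0.05. Bmp6 was at -0.42 (SE 0.30), Bmp4 at -0.42 (SE 0.35; -0.15 without WT replicate 4) and the BMP inhibitor gene Smad6 at -0.55 (SE 0.48). Smad6 was at -0.02 without WT replicate 1 and -1.37 without NPYtet replicate 5. Of 8 upper follicle genes, 3 were above and 5 below 0 (median -0.17), none at an unadjusted p under 0.05. Among them Krt79, a keratin of the upper follicle, was at -0.63 (SE 0.37; -0.40 without NPYtet replicate 5), Lrig1, a growth factor inhibitor of isthmus cells, at -0.51 (SE 0.34; -0.24 without NPYtet replicate 5) and Defb6, a defensin, at 0.91 (SE 0.55; -0.19 without NPYtet replicate 5). Cell division genes stood at 12 of 12 below 0 (51.2% of all genes; median -0.99), with 8 at an unadjusted p under 0.05 (2.14% of all genes) and 0 past the adjusted threshold. Without WT replicate 1, 0 of the 12 had such a p (median -0.55), and without NPYtet replicate 5, 2 had.

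The labels also allow males to be set against females. None of the 9 genes passed for sex in edgeR after adjustment (2.48% of all genes did), and 2 of 9 had an unadjusted p under 0.05, against 24.6% of all genes. These were Cd34 and Lgr6, the only 2 of the 9 whose groups by labelled sex did not overlap, as was so for 8.44% of all genes. Cd34 was at 131.5 to 278 CPM in the 5 libraries labelled male and at 284 to 510.4 CPM in the 5 labelled female. It averaged 195 ± 56.0 CPM in those labelled male and 400.4 ± 86.9 CPM in those labelled female (SD), NPYtet replicate 1 among the latter. The log2 fold change, male minus female, was -1.01 (SE 0.31, edgeR adjusted p = 0.0862). DESeq2 and limma voom called it (adjusted p = 0.0234 and 0.0139), where they called 12.9% and 31% of all genes.

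Lgr6 was at 13.2 to 37.1 CPM in libraries labelled male and at 38.9 to 54.4 CPM in those labelled female, and its log2 fold change was -0.89 (SE 0.34, edgeR adjusted p = 0.132). The highest Cd34 level belonged to NPYtet replicate 1, labelled female but holding Y-linked reads, and its Lgr6 level (48.2 CPM) lay inside the range of the libraries labelled female. The separation of both genes is thus by label, and by X and Y reads the sexes overlap. Without it the sex difference was -0.89 for Cd34 and -0.83 for Lgr6 (edgeR adjusted p = 0.130 and 0.185). Hair sums were 1723 CPM or more in all 5 libraries labelled male, and 355.5 CPM or less in 4 of the 5 labelled female. The lowest hair sum of all, 63.4 CPM, was in NPYtet replicate 1, so by X and Y reads the sexes overlap here too. With the hair genes as covariate, Cd34 was at -0.50 and Lgr6 at -0.43 (edgeR adjusted p = 0.627 and 0.683). Whether the genotype difference itself differed between the labelled sexes was tested as an interaction. None of the 9 genes passed, adjusted or at an unadjusted p under 0.05, nor with DESeq2 or limma voom after adjustment (over all genes edgeR called 0% adjusted and 1.63% unadjusted), and the smallest unadjusted p, for Lgr5, was 0.125.

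The genes nearest to each profile over the 10 libraries were listed by the same distance, among tested genes of at least 1 CPM. Cd34 lay nearest to Naaa (0.119 SD) and Enpp3 (0.179 SD), and Lgr6 to Bco2 (0.0778 SD) and Plekhm3 (0.117 SD). Lgr5 lay nearest to Bmp2 (0.186 SD), a BMP ligand of the list above, and to Zfp354c (0.254 SD). Lhx2 was followed by Pthlh (0.262 SD) and Chn2 (0.311 SD), Sox9 by Rpl10a (0.268 SD) and Lingo1 (0.286 SD), and Tbx1 by Ccdc106 (0.136 SD) and Rflna (0.164 SD). Nfatc1 was followed by Aco1 (0.201 SD) and Apobec3 (0.23 SD), Foxc1 by Calhm5 (0.294 SD) and Tspan6 (0.314 SD), and Gata6 by H2-Eb1 (0.242 SD) and Gstm2 (0.252 SD). Over all genes considered the median distance lay between 0.948 SD (from Lgr6) and 1.14 SD (from Sox9 and Tbx1). With 10 libraries and many genes, near profiles are easily found, and these distances are given as a description.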

How the data were processed

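Each library's deposited file holds raw counts of reads, as whole numbers by Ensembl gene ID, with no header. The submitters' processing notes name, on build mm10, the tools STAR (2.5.2), Trimmomatic (0.36), FastQC (0.11.8), bcl2fastq and DESeq2 (1.30.1), which the authors used on their side. Libraries were directional and paired-end, made from TRIzol-extracted RNA, per the labels' protocols. No source used here gives the strand column counted or the annotation release. Symbols came from GENCODE M21 (GRCm38, the assembly of mm10), which matched 49412 of 49671 IDs. The other 259 held 0.019% of reads.

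Counts were fitted in R 4.3.3 with edgeR 4.0.16: filterByExpr (minimum count 10, total 15), TMM scaling, robust quasi-likelihood tests on sex and genotype, Benjamini-Hochberg adjustment over 18060 genes and a threshold of 0.05. SEs and 95% intervals were derived from the F statistic. Log2 CPM used a prior count of 2. The fit was also run on counts simulated with the gene-wise spread estimated from these data. They held no sex effect and no libraries that stood apart, so they cannot show how the fit handles these. No libraries of a group agreed within sampling noise, so none was a copy of another. The sample titles give each library a different number, and each counted as 1 mouse. Alternatives were DESeq2 1.42.0, limma voom with library quality weights (limma 3.58.1), other scaling and filters, covariates and left-out libraries. The fits of printed genes outside the 9, of sex and of the lists, under these alternatives were added after seeing the data.

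The members and lists were chosen with earlier results of these data known. Named were the 9 genes, Npy, up to 4 genes per list by smallest p, printed in part (1 is not reported here), and the 2 nearest profiles of each member. Of 153 list names, Krt85 matched no ID and Ccl21a matched 2, and both were left out. Counting error alone would allow up to 3 reads where a gene has 0.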

Additional observations from a re-analysis of the deposited data

Results flagged for a closer look

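In 18 sets of 5 libraries (9 genes in each genotype), 4 held a library set far from the others by Dixon's gap test, where chance gives about 1 in 20. Tbx1 at 122.6 CPM in NPYtet replicate 5 stood above the other NPYtet libraries, and that library is 1 of the pair with the fewest genes detected. Gata6 at 15.3 CPM in NPYtet replicate 2 stood below the other NPYtet libraries. Lhx2 at 103.4 CPM and Foxc1 at 101.5 CPM in WT replicate 1 stood above the other WT libraries, and both fall in the same mouse.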

How the results depend on the processing

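Over 22 alternatives for each of the 9 genes, 177 of 198 fits kept the direction and 21 turned it, and 0 were called. Lhx2, Sox9 and Gata6 kept their direction in all of theirs. The direction turned as follows on the log2 scale. In limma voom Cd34 was at -0.094, Lgr5 at -0.195 and Lgr6 at 0.014. Lgr6 was at 0.16 without the sex term and at 0.33 with the adipocyte score. With the hair score Cd34 was at -0.22, Nfatc1 at -0.55, Tbx1 at 0.28 and Foxc1 at 0.32. Without NPYtet replicate 2 Nfatc1 was at -0.025, and without NPYtet replicate 5 Lgr5 was at -0.11 and Lgr6 at 0.18. Without WT replicate 1 Cd34 was at -0.004, Nfatc1 at -0.069 and Foxc1 at 0.119, and without WT replicate 5 Lgr6 was at 0.054. Without WT replicate 2 and NPYtet replicate 5 Lgr5 was at -0.24 and Lgr6 at 0.08, and without NPYtet replicate 1 as well they were at -0.38 and 0.06. With libraries left out, Cd34 lay between -0.004 and 0.302, Lgr5 between -0.377 and 0.549, Lgr6 between -0.278 and 0.183, Nfatc1 between -0.069 and 0.479 and Foxc1 between -0.389 and 0.119. Of the genes named from the lists, in limma voom Defb6 was at -0.211, Cst6 at -0.328 and Id2 at -0.088. With the hair score Itga6 was at -0.037 and Smad6 at 0.376, and with the adipocyte score Dkk3 was at 0.213 and Rspo2 at 0.214. With libraries left out, Itga6 lay between -0.128 (without NPYtet replicate 2) and 0.723, Defb6 between -0.239 and 1.228, Cst6 between -0.453 and 0.85 and Id2 between -0.172 and 0.379, the last 3 below 0 in each fit without NPYtet replicate 5. The causes were not tested.

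Genes called by genotype numbered 1 in edgeR, 35 in DESeq2, 2 in limma voom, 409 without a filter on low counts, and 0 without WT replicate 2 and NPYtet replicates 1 and 5. With each library left out in turn they numbered 1 to 8, the 8 without WT replicate 3. Genes called by sex numbered 448 in edgeR, 2316 in DESeq2, 5590 in limma voom, 217 without scaling factors, 2380 without a filter, 20 with the hair score and 949 without the 3 libraries. With each library left out in turn they numbered 58 (without WT replicate 3) to 2725 (without WT replicate 4). Of the 9 genes, DESeq2 and limma voom called 1 each by sex (Cd34 in both).

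The main fit did not pair mice by replicate number. Same-numbered libraries of the genotypes correlated from -0.256 to 0.644 in their deviations from the group means, and differently numbered ones from -0.61 to 0.738. So few values cannot show whether same-numbered mice belong together. With the replicate number as a block, 1 gene was called by genotype and 0 by sex, and Lgr6 was at 0.04. With 5 mice a genotype, differences inside the 95% intervals could not be shown.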
